A study of Homo sapiens with 4 samples.

Results

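The keratin gene clusters are the 790 kb window chr12:52560000-53350000 and the 1000 kb window chr17:38800000-39800000 of GRCh37 (hg19), and their members were every CpG with sequencing reads inside these coordinates. They held 19622 of the 27710999 CpGs on the autosomes and X, of which 9654 lay on chromosome 12 and 9968 on chromosome 17. The windows made up 358 of 567027 tiles of 5 kb. They overlapped 55 keratin genes (KRT), 27 on chromosome 12 and 28 on chromosome 17, and 34 keratin-associated protein genes (KRTAP), all on chromosome 17. The rule used coordinates alone, and the windows were picked with earlier results of these data known. CpG methylation was measured by EM-seq, in which enzymes rather than bisulfite convert unmethylated cytosines before sequencing, in HEK293T, a human embryonic kidney cell line. The groups were WT cells (2 libraries) and ZNF274KO cells (2 libraries), in which the gene of the zinc finger repressor ZNF274 was deleted with Cas9 and guides on either side of it. Both groups were untreated. Knockout cells were sorted as single cells, and the labels do not say whether the libraries of a group came from separate clones or cultures, so the spread between them may be technical.

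Keratins are the intermediate filament proteins of epithelial cells. A type I keratin pairs with a type II keratin to build a filament, and each epithelium uses its own pairs. Type I genes lie in the chromosome 17 cluster and type II genes in the chromosome 12 cluster, except that the type I gene KRT18 lies beside its type II partner KRT8 on chromosome 12. Keratin-associated proteins form the matrix around the keratin filaments of hair. Some of their small genes, rich in cysteine codons, stand in a block among the type I keratins, while others lie on chromosomes 11 and 21. The study asked how clusters of lineage-specific genes depend on ZNF274, and the keratins are such a cluster. ZNF274 is a KRAB zinc finger protein that recruits the machinery for histone H3K9 trimethylation.

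A few stretches of sequence from GRCh37 show what the CpGs of these clusters look like. Each is given 5′ to 3′, with every CpG in capitals as CG. The 250 bases upstream of KRT9 (chr17:39728312-39728561, minus strand), with 6 CpGs, are shown because its promoter stood among the largest rises in ZNF274KO cells.
KRT9: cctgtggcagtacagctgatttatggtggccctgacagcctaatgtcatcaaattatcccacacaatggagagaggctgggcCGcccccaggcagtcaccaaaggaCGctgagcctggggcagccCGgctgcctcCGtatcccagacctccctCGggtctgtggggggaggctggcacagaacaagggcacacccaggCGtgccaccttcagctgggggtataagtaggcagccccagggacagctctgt
The 250 bases upstream of KRTAP4-6 (chr17:39296797-39297046, minus strand) are shown because they hold no CpG at all, and those of KRTAP2-3 (chr17:39216367-39216616, minus strand), with 4 CpGs, because its gene body had the largest rise among KRTAP genes of at least 20 CpGs. The stretch itself went the other way from that gene body, at 39.0% and 36.4% in WT and 29.7% and 30.6% in ZNF274KO libraries, on 33 to 41 reads.
KRTAP4-6: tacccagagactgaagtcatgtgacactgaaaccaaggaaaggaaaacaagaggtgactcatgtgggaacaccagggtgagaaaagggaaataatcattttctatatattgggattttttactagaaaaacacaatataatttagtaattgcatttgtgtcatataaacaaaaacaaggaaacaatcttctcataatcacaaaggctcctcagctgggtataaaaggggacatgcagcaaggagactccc
KRTAP2-3: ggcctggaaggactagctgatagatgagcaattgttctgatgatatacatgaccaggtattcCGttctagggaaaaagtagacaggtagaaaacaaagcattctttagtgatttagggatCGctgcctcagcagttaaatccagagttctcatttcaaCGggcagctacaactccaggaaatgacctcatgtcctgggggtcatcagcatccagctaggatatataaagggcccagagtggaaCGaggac
Finally, 300 bases of a CpG-rich segment outside keratin genes (chr12:53268022-53268321, plus strand, 35 CpGs) are shown because that segment differed most between the groups, and 300 bases from inside a coding exon of KRT10 (chr17:38975051-38975350, minus strand, 51 CpGs) because they held no methylated read in any library. The levels of both are given below.
CpG-rich segment: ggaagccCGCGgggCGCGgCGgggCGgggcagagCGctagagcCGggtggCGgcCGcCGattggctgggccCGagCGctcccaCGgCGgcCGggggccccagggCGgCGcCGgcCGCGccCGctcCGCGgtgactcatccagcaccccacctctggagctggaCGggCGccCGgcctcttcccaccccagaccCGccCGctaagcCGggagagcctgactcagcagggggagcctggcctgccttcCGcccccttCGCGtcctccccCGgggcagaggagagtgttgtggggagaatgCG
KRT10 coding exon: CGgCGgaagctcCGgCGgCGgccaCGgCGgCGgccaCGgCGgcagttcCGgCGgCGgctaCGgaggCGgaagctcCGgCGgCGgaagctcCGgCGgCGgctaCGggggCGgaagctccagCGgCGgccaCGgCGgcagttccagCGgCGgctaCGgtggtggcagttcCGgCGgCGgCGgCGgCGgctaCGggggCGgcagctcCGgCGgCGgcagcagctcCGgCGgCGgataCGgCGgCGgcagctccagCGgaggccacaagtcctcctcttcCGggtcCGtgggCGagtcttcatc

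The level of a region was the number of reads with a methylated cytosine divided by all reads over its CpGs, summed over the region in each library. A read was counted at every CpG it covered, so the read numbers summed over a region exceed the number of separate reads. The 4 libraries held 241598512 to 295114493 reads over CpGs, with a median of 8 to 10 reads per CpG, and the genome-wide level was 59.3% and 60.4% in WT and 60.2% and 58.4% in ZNF274KO libraries. Over the 501 CpGs of the ZNF274 gene itself there were 5158 and 4274 reads in WT and 0 and 14 reads in ZNF274KO libraries. Reads per CpG in the windows were 0.925 to 0.975 of the autosomal mean on chromosome 12 and 0.931 to 0.962 of it on chromosome 17. In each window 83.1% (chromosome 12) and 77.3% (chromosome 17) of CpGs lay in converted sequence that occurs once in the genome, while in KRT bodies the share was 79.9% and in KRTAP bodies 57.7%. Reads from near-identical copies, as in the KRT6 and KRTAP families, may therefore be shared between genes.

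The keratin window on chromosome 12 had a level of 60.3% and 60.3% in WT and of 62.5% and 60.7% in ZNF274KO libraries, so both knockout libraries were above both WT libraries by a mean of 1.29 percentage points. The exact permutation test over libraries, two-sided, gave p = 0.333, which is the smallest value that 2 against 2 libraries can give. The rest of chromosome 12 moved the other way, by -0.559 percentage points, with overlapping groups. Within each library the window minus the rest of its chromosome was -0.149 and -1.22 percentage points in WT and 1.06 and 1.26 in ZNF274KO libraries, and this difference of 1.85 percentage points again separated the groups (exact permutation p = 0.333).

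The chromosome 17 window was less methylated than the rest of that chromosome, at 50.8% and 50.9% in WT against 69.8% and 69.5%. Its ZNF274KO libraries stood at 53.5% and 49.9%, 1 above and 1 below both WT libraries, and the mean difference of 0.867 percentage points did not hold up against the spread between them (exact permutation p = 1). Without the library ZNF274KO 1 the difference was -0.948, and without ZNF274KO 2 it was 2.68. The same 2 libraries taken out of the chromosome 12 comparison gave 0.402 and 2.17. Set against the rest of chromosome 17, the window lay at -19.0 and -18.6 percentage points in WT and at -16.4 and -18.3 in ZNF274KO libraries, and these groups did not overlap (difference 1.43, exact permutation p = 0.333).

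**Figure D1:**
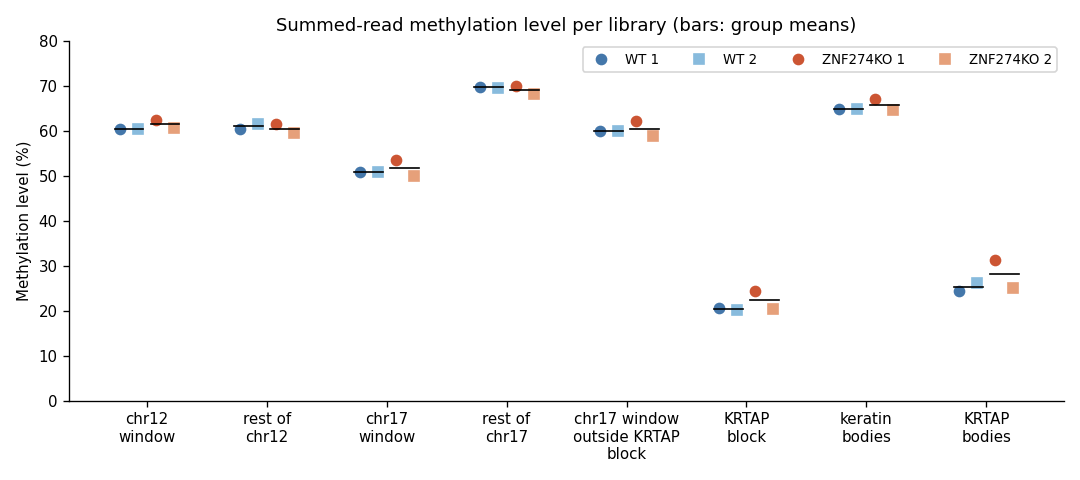
Summed-read methylation level (%) of the keratin windows, their chromosomes and their gene bodies, with 1 point per library and bars at the group means of 2 libraries. The KRTAP block and KRTAP bodies lie near 20% to 31% in every library, and ZNF274KO 1 is the highest library in every keratin region drawn.

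The KRTAP genes made up a block of 322.281 kb within the chromosome 17 window that was little methylated. Its level was 20.6% and 20.2% in WT and 24.4% and 20.3% in ZNF274KO libraries, against 59.9% and 59.8%, and 62.1% and 58.7%, in the remainder of that window. Within each library the block minus that remainder was -39.3 and -39.6 percentage points in WT and -37.7 and -38.4 in ZNF274KO cells, so the gap was narrower in both knockout libraries by 1.41 percentage points (exact permutation p = 0.333). The level inside the block was low between genes too, at 19.1 ± 0.714% outside KRTAP bodies in WT (SD, n = 2). CpGs were sparser there, with a median of 36 per 5 kb tile against 58 in the chromosome 12 window and 38 in all tiles tested. Among its 66 tiles, 18 had a mean WT level under 10%, that is 27.3% of them, beside 10.6% of all 563523 tiles tested.

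Neighbouring tiles with a mean WT level under 20% formed runs. An 80 kb run at chr17:39255001-39335000, which carries 9 of the 12 KRTAP4 genes, had 16 tiles with mean WT levels of 0 to 19.3%. A 70 kb run at chr17:39375001-39445000, with 7 of the 8 KRTAP9 genes, had 14 tiles of 3.40% to 19.3%. On chromosome 12 the longest run was 15 kb at chr12:53125001-53140000, a stretch without keratin genes between KRT77 and KRT76, at 7.94% to 14.1% in WT and 10.9% to 14.6% in ZNF274KO cells. The mean was higher in ZNF274KO cells in 3 of the 3 tiles of that run, in 13 of the 16 tiles over KRTAP4 and in 8 of the 14 tiles over KRTAP9, beside 54.3% of all tiles with a WT level under 20%.

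**Figure D2:**
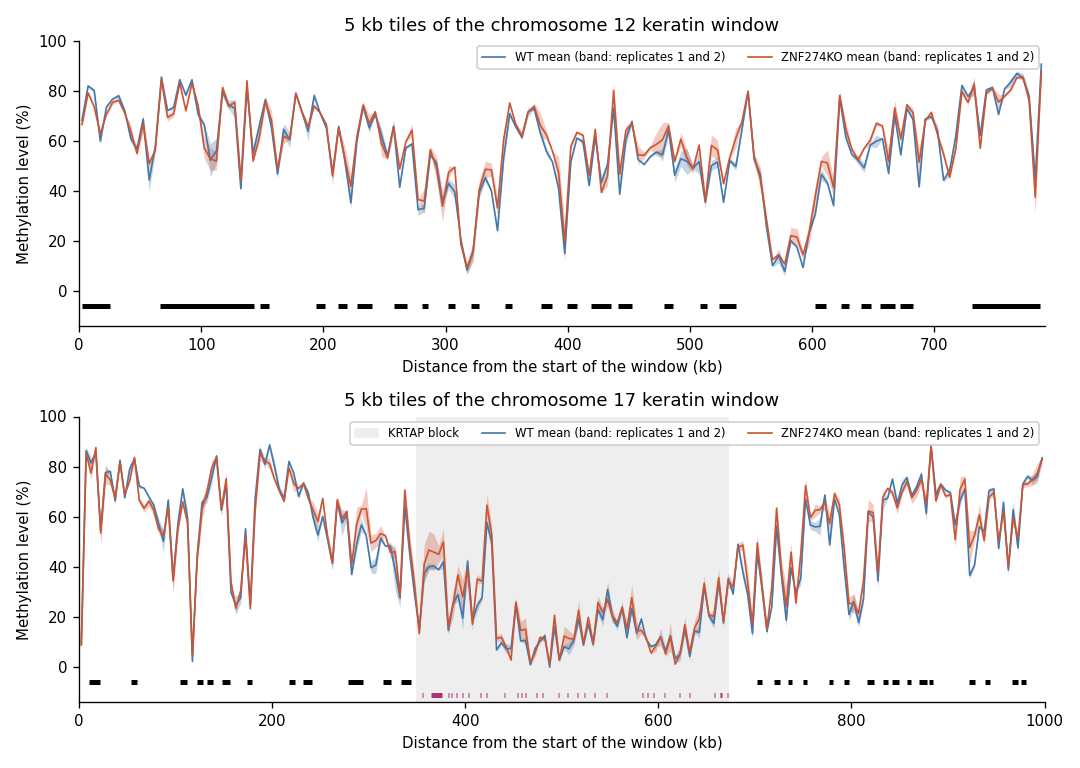
Methylation level (%) of each 5 kb tile against distance (kb) from the start of the chromosome 12 and chromosome 17 windows. Lines are group means of 2 libraries, bands span replicates 1 and 2, black bars below mark KRT genes, purple bars KRTAP genes and the shaded part is the KRTAP block; WT and ZNF274KO lines follow the same rises and falls, and the block stays mostly under 40%.

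All 358 tiles of the windows could be tested, and none was called at an adjusted p under 0.05 by edgeR's quasi-likelihood test over all tiles of the genome, while 0.486% of all tiles were called (2739 of 563523). At an unadjusted p under 0.05 there were 28 tiles, beside 6.52% of all tiles, 21 of them higher in ZNF274KO cells (3.28% of all tiles) and 7 lower (3.24% of all tiles). Each ZNF274KO library exceeded both WT libraries in 100 of the 358 tiles, beside 13.5% of all tiles, and lay below both in 48, beside 22.3%. The mean difference was above 0 in 224 tiles, or 62.6%, beside 42% of all tiles, and its median was 1.18 percentage points beside -0.58. ZNF274KO 1 exceeded ZNF274KO 2 in 268 of the 358 tiles, or 74.9%, beside 66.5% of all tiles. Neighbouring tiles share their surroundings and are not replicates, and no single tile differed beyond the spread between libraries after adjustment.

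The tile with the smallest adjusted p was chr12:53265001-53270000, a tile outside keratin genes and 20971 bases from the nearest of them, KRT8. Its levels were 45.1% and 43.6% in WT and 53.1% and 56.2% in ZNF274KO libraries (unadjusted p = 0.00425, adjusted p = 0.357, edgeR), and it is named here after its values were seen. The CpG-rich segment of 500 bases at chr12:53268001-53268500 within it had 39 CpGs and levels of 11.3% and 16.7% in WT and 32.4% and 35.3% in ZNF274KO libraries. Of the 26 CpG-rich segments described below this one had the largest difference, 19.8 percentage points. Its reads, summed over the 39 CpGs, were 284, 215, 145 and 153 in the order of the libraries. In the 300 bases printed above, the levels were 3.63% and 8.29% in WT and 20.2% and 19.8% in ZNF274KO libraries. There the reads summed over 35 CpGs were 248, 181, 114 and 106. Coverage was thus thinner in the knockout libraries, and these levels rest on few separate reads.

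A rise or a fall is here a difference of the group means with groups that do not overlap over at least 20 CpGs (10 for promoters), and none of those named passed the test. The largest rise was the tile chr17:39725001-39730000 over the 5′ part of KRT9, a keratin of palm and sole epidermis. It had 39.8% and 41.6% in WT and 54.6% and 50.8% in ZNF274KO libraries (adjusted p = 0.366, edgeR). The neighbouring tile chr17:39720001-39725000 over the remainder of KRT9 moved with it, from 38.02% and 35.2% to 54.5% and 40.9%. The tile over the start of KRT77, an epidermal type II keratin, went from 51.3% and 48.2% to 65.02% and 57.2%. The remaining rises were chr17:39210001-39215000 over KRTAP2-2, from 26.5% and 22.5% to 37.2% and 33.2%, and chr17:39095001-39100000, 1103 bases from KRT23, from 52.5% and 52.7% to 71.8% and 54.7%. In all 5 the library ZNF274KO 1 was the higher of the knockout libraries.

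The largest falls by the same rule were smaller. The tile chr12:52660001-52665000 inside the KRT86 gene model went from 65.7% and 67.2% in WT to 61.7% and 52.9% in ZNF274KO libraries, a difference of -9.21 percentage points. In chr17:38865001-38870000, 4997 bases from KRT24, the levels were 71.4% and 71.4% in WT and 64.9% and 61.7% in ZNF274KO libraries. The tile of the KRT18 start, chr12:53340001-53345000, had 44.7% and 44.8% in WT and 43.96% and 31.1% in ZNF274KO libraries, so ZNF274KO 2 stood far below the other 3. The others were chr17:38995001-39000000, with a difference of -7.55, and chr12:52570001-52575000 within KRT80, with -6.49, and adjusted p of the 5 falls ranged from 0.467 to 0.797 (edgeR).

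The differences varied with the level a tile had in WT cells. In tiles of the windows with a mean WT level of 20% to 40% (58 tiles) the median difference was 3.03 percentage points, and in those of 40% to 60% (98 tiles) it was 3.22. All tiles of the genome in the same classes had medians of 0.98 and 0.35. In the 57 tiles under 20% the median was 1.18 beside 0.24 for all tiles, and in the 117 tiles of 60% to 80% it was -0.18 beside -1.06. The 28 tiles above 80% had a median of -1.27 beside -1.34. The WT values that set these classes also enter the difference, in the windows and in all tiles alike, and these medians are a description without a test.

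**Figure D3:**
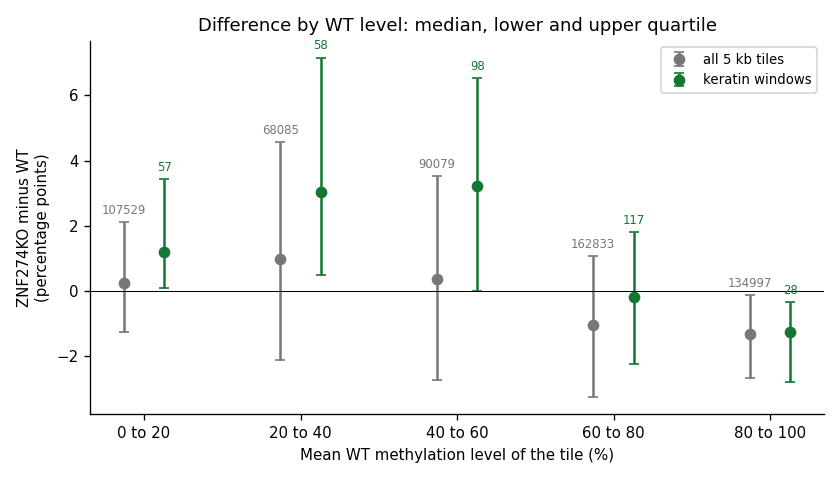
Difference in methylation level, ZNF274KO minus WT (percentage points), of 5 kb tiles by their mean WT level (%), with points at the median, bars from the lower to the upper quartile and the number of tiles above each bar. Tiles of the keratin windows have medians of 3.03 and 3.22 in the classes from 20% to 60%, above those of all tiles, and above 80% the medians of both sets lie near -1.3.

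Keratin gene bodies, from the outermost start to the end of a gene, were methylated at 64.9% and 64.8% in WT and 66.9% and 64.5% in ZNF274KO libraries when their reads were pooled. The difference of 0.873 percentage points lay within the spread of the libraries (exact permutation p = 1), and without ZNF274KO 1 it was -0.344. Exons lay slightly above introns in every library, with 65.7 ± 0.567% and 64.02 ± 0.642% in WT and 66.7 ± 1.73% and 64.8 ± 1.71% in ZNF274KO cells (SD, n = 2 each). All 55 bodies were tested and none was called, beside 0.918% of all protein-coding genes. At an unadjusted p under 0.05 there were 2, beside 7.22% of all bodies. They were KRT9 and KRT77, both higher in ZNF274KO cells (2.89% of all bodies). Both ZNF274KO libraries were above both WT libraries in 18 of the 55 bodies, beside 9.09% of all bodies, and below both in 12, beside 30.6%. The median difference was 1.39 percentage points beside -0.93 over all bodies. Taking the 75th percentile of CpG levels in each gene instead, the mean difference over keratin genes was -0.28, with 23 of 55 genes higher in ZNF274KO cells. On chromosome 12 the median was 2.27, with 12 of 27 bodies above and 5 below, and on chromosome 17 it was 0.23, with 6 of 28 above and 7 below.

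By pooled reads the keratins of simple epithelia were the most methylated group and the only one of 6 whose level was lower in both knockout libraries. This group comprises KRT7, KRT8, KRT18, KRT19, KRT20, KRT23 and KRT80. Its pooled bodies had 74.9% and 74.3% in WT and 73.3% and 73.1% in ZNF274KO libraries (difference -1.38, exact permutation p = 0.333). All tiles of the genome with a WT level of 60% to 80% had a median difference of -1.06. The outermost model of KRT8 supplied 878 of the 2081 pooled CpGs, and the canonical start of KRT8 lies 44878 bases inside that model. The median over genes was 73.3% in WT and 72.3% in ZNF274KO cells, beside 71.5% and 73.8% for mucosal and corneal keratins. Of the 7 simple epithelial bodies 4 lay lower in both knockout libraries, none higher, and 3 overlapped, where 30.6% of all bodies lay lower and 9.09% higher. KRT80 had 74.0% and 74.1% in WT and 72.2% and 72.4% in ZNF274KO libraries, a narrow separation with adjusted p = 0.834 (edgeR). KRT7, the type II keratin of ducts and glands, had 81.9% and 81.3% against 78.9% and 80.9%. KRT19, a small type I keratin of simple and ductal epithelia, was the most methylated keratin body, at 87.9%, 88.6%, 86.9% and 88.7% in the order of the libraries, with no separation. The last step of KRT19, 4 to 5 kb from its start, was an exception and is named after its values were seen. It had 56.4% and 56.7% in WT and 75.4% and 74.6% in ZNF274KO libraries on 30 CpGs. The gene is 4692 bases long, so this step runs past its end.

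KRT8 and KRT18 encode the filament pair that appears first in embryonic epithelia, and they lie on opposite strands, pointing away from each other, at the end of the chromosome 12 window. The body of KRT8, whose outermost gene model reaches over the start of KRT18, had 74.1% and 72.5% in WT and 70.8% and 70.6% in ZNF274KO libraries. That model is 52768 bases long and the canonical start lies 44878 bases inside it. This level therefore mostly describes sequence upstream of the canonical KRT8 transcript. KRT18 had 48.8% and 49.7% in WT and 46.9% and 36.8% in ZNF274KO libraries, the largest fall among keratin bodies at -7.36 percentage points (adjusted p = 0.718, edgeR). In the canonical transcript of KRT18 alone, which begins at 53342902, the difference in summed reads was -12.8 (adjusted p = 0.382, edgeR). No single 1 kb step from that start fell as far. The largest fall of a step was in the first 1 kb, from a mean of 16.6% in WT to 8.26% in ZNF274KO cells. A summed level also depends on how reads are shared between low and high steps, and that share was not tested. With CpGs in repeated sequence left out of the gene body the difference was -3.13. Along both genes the low part was short. In KRT18 the first 1 kb had 13.4% and 19.9% in WT and 10.1% and 6.46% in ZNF274KO libraries, and the next 1 kb had 92.9%, 95.3%, 95.9% and 84.3%. In KRT8 the low step lay 1 to 2 kb inside the canonical start, at 14.8% and 12.1% in WT and 12.5% and 8.91% in ZNF274KO libraries, with 94.1%, 94.2%, 91.4% and 91.5% in the step after it.

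**Figure D4:**
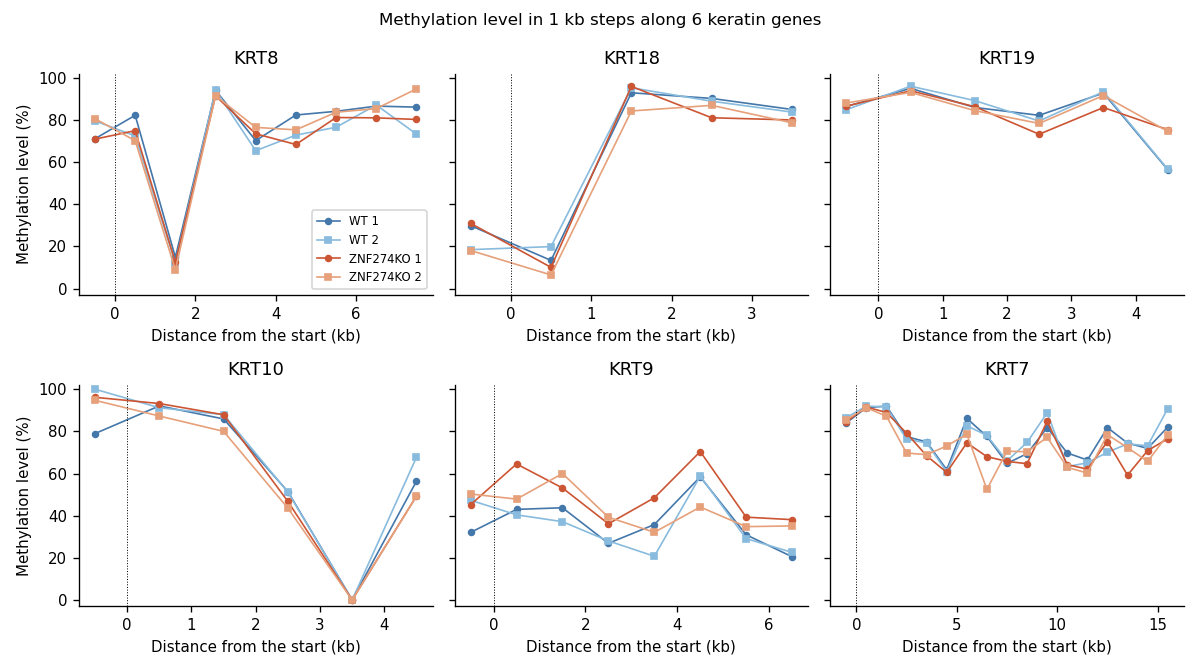
Methylation level (%) of each library in 1 kb steps from the canonical start of 6 keratin genes, with distance in kb, negative upstream. KRT18 is low at its start, KRT8 and KRT10 fall to a short low step inside the gene, KRT19 and KRT7 stay high at their starts, and in KRT9 the ZNF274KO mean is higher in every step but that of 4 to 5 kb.

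Keratins of the epidermis spanned a wide range of levels. In the basal and suprabasal group (KRT1, KRT2, KRT5, KRT9, KRT10, KRT14, KRT15 and KRT77) pooled levels were 55.3% and 53.6% in WT and 57.4% and 55.4% in ZNF274KO libraries, and 4 of 8 bodies were higher in both knockout libraries and 1 lower, beside 9.09% and 30.6% of all bodies. KRT5, the type II keratin of basal keratinocytes, had 70.8% and 70.0% in WT and 75% and 74.4% in ZNF274KO libraries (adjusted p = 0.752, edgeR). Its type I partner KRT14 had 70.8%, 67.9%, 72.3% and 67.1%, with overlapping groups. KRT1, which replaces KRT5 as keratinocytes leave the basal layer, had 51.4% and 47.6% in WT and 52.2% and 51.7% in ZNF274KO libraries. KRT9 had the largest rise of all keratin bodies, from 40.4% and 34.3% to 53.0% and 41.1% (difference 9.69, unadjusted p = 0.0449, adjusted p = 0.677, edgeR), and the lower knockout library stood only just above the higher WT library. KRT77 went from 45.6% and 42.7% to 52.0% and 49.1%.

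KRT10, the type I partner of KRT1, was the least methylated keratin body, at 22.3% and 23.9% in WT and 19.98% and 21.3% in ZNF274KO libraries. Its promoter stood at the other end, at 90.0%, 91.8%, 93.8% and 88.4% on 13 CpGs. The low level lay 3 to 4 kb from the canonical start, where 80 CpGs were at 0% in all 4 libraries, and most of these CpGs stood in a coding exon of 375 bases (chr17:38975039-38975413) near the 3′ end of the gene, where the antisense gene KRT10-AS1 begins at 38975353. Its 65 CpGs had 0 methylated reads among 583 and 424 reads in WT and 587 and 486 reads in ZNF274KO libraries. Were these counts independent, they would allow a level of up to 0.515%, 0.708%, 0.511% and 0.617%, counting error only. Neighbouring CpGs share reads, so the true limits are higher. The exon encodes part of the glycine-rich end that is typical of epidermal keratins. The first 1 kb of the gene, in contrast, had 92.1%, 91.2%, 93.2% and 87.3%.

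In the inducible and appendage group, which holds the wound-induced KRT6 and KRT16 genes, KRT17, KRT75 and KRT79, 3 of 7 bodies were higher in both knockout libraries and 1 lower, where the shares over all bodies were 9.09% and 30.6%. KRT6C went from 37.5% and 38.1% to 46.2% and 42.3% (difference 6.50), and only 35.4% of its CpGs lay in sequence that occurs once. With the repeated CpGs left out its difference was 10.3. Mucosal and corneal keratins (KRT3, KRT4, KRT12, KRT13, KRT24, KRT76 and KRT78) had a pooled level of 67.4% and 66.3% in WT and 70.2% and 67.5% in ZNF274KO libraries, a difference of 2.03 percentage points with groups apart. KRT76, a keratin of the gums and hard palate, went from 43.4% and 40.7% to 53.0% and 44.7%, without passing the test. KRT12, the type I keratin of the cornea, went the other way, from 81.3% and 84.3% to 80.4% and 75.4%.

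Hair keratins were similar in level to the family as a whole. The 17 hair shaft bodies had pooled levels of 64.5% and 65.3% in WT and 67.7% and 64.3% in ZNF274KO libraries, and 5 were higher and 2 lower in both knockout libraries, against 9.09% and 30.6% of all bodies. The outermost model of KRT86, which also covers KRT81, spans 876 of the 2395 pooled CpGs. It begins 25345 bases upstream of the canonical start of KRT86. KRT38 went from 36.6% and 32.1% to 45.6% and 38.7% and its neighbour KRT37 from 57.0% and 55.6% to 66.4% and 60.8%, with adjusted p of 0.692 and 0.713 (edgeR quasi-likelihood). KRT36 had 74.0% and 70.3% in WT and 69.8% and 65.5% in ZNF274KO libraries. The 8 inner root sheath keratins, which build the sleeve that moulds the growing hair, went both ways. KRT71, KRT73 and KRT74 on chromosome 12 were higher in both knockout libraries, with differences of 4.79, 4.55 and 5.90, and KRT72 overlapped with 0.59. On chromosome 17 KRT25 and KRT26 were lower in both, with -4.13 and -5.38, while KRT27 and KRT28 overlapped with 2.83 and 2.198. None of the 8 passed the test.

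**Figure D5:**
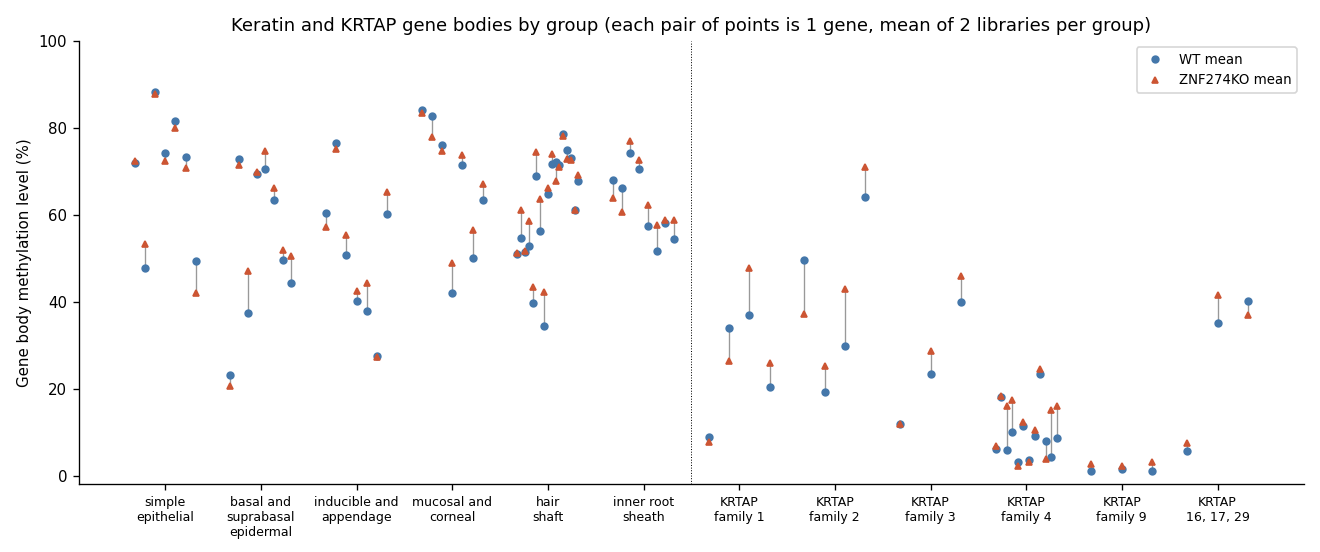
Gene body methylation level (%) of the keratin genes in 6 groups, left of the dotted line, and of the KRTAP genes by family, with a circle for the WT mean and a triangle for the ZNF274KO mean of 2 libraries of each gene. KRT10 is the lowest keratin and KRT19 the highest; KRT222, in no group, and KRTAP genes with under 5 CpGs are not drawn.

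KRTAP bodies were far less methylated than keratin bodies in every library. Pooled, they had 24.3% and 26.1% in WT and 31.3% and 25.1% in ZNF274KO libraries. The difference of 3.01 percentage points was within the spread (exact permutation p = 0.667) and came to -0.0936 without ZNF274KO 1. Within each library KRTAP bodies minus keratin bodies came to -40.6 and -38.7 percentage points in WT and -35.6 and -39.4 in ZNF274KO cells, so the gap between the families did not separate the groups either (exact permutation p = 0.667). Of the 34 bodies 29 had the 5 CpGs and 20 reads per library needed for a test. The others were KRTAP9-1, KRTAP9-3, KRTAP9-4, KRTAP9-6 and KRTAP9-7, with 1 to 3 CpGs each. None of the 29 was called, 2 had an unadjusted p under 0.05 (7.22% of all bodies), 7 were higher in both knockout libraries (9.09% of all bodies) and 4 lower (30.6%), and the median difference was 1.48 percentage points beside -0.93 over all bodies. These 29 bodies had a median WT level of 11.3%, beside 69.5% over all bodies, so the comparison is not matched in level. Among all 5 kb tiles the median difference was 0.24 under a WT level of 20% and -1.06 from 60% to 80%. With limma in place of edgeR, 1 KRTAP body was called, KRTAP4-2 (adjusted p = 0.0489), beside 0.287% of all bodies with limma. KRTAP4-2 had 7 CpGs and levels of 3.77% and 4.69% in WT and 17.1% and 13.2% in ZNF274KO libraries.

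The KRTAP families differed from each other. KRTAP9, of the ultra-high-sulfur proteins, was nearly free of methylation, at 1.14%, 0.413%, 2.51% and 0% pooled over 31 CpGs. KRTAP4, also of that class, had 8.63% and 9.59% in WT and 12.3% and 10.6% in ZNF274KO libraries, and both knockout libraries were higher. KRTAP1 stood at 23.3%, 31.1%, 32.8% and 23.05%, with overlap. KRTAP3 had 36.9% and 36.9% in WT and 48.0% and 37.7% in ZNF274KO libraries. Of its 96 CpGs 83 lay in KRTAP3-1, whose outermost start is 10196 bases upstream of its canonical start, so the family level mostly describes that stretch. The same 83 CpGs are among the 539 of the pooled KRTAP bodies. KRTAP3-3 and KRTAP3-2 had lower mean WT levels, 11.9% and 23.3%. The single genes KRTAP16-1, KRTAP17-1 and KRTAP29-1 had mean WT levels of 35.1%, 40.2% and 5.65%, and KRTAP17-1 was lower in both knockout libraries, with a difference of -3.26 percentage points.

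KRTAP2 genes, which encode high-sulfur proteins, held the largest differences in both directions, and reads per CpG in their bodies were 0.58 to 0.608 of the autosomal mean in the 4 libraries, the lowest of the KRTAP families. KRTAP2-3 went from 31.2% and 28.3% in WT to 40.6% and 45.1% in ZNF274KO libraries (difference 13.1, unadjusted p = 0.0228, adjusted p = 0.573, edgeR). KRTAP2-4 had 63.6% and 64.6% in WT and 71.6% and 70.3% in ZNF274KO libraries. KRTAP2-1 went from 46.2% and 52.7% to 45.3% and 28.8%, a difference of -12.4 percentage points in which ZNF274KO 2 stood far below the other 3 libraries. Only 7.14% to 16.1% of the CpGs in these 4 bodies lay in sequence that occurs once, and with the repeated CpGs left out the difference of KRTAP2-1 was 3.61, on 15.2% of its 33 CpGs, too few for a direction. KRTAP4-9 completed the named rises, from 9.02% and 11.04% to 22.8% and 11.98%.

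Promoters, taken as 1 kb either side of the outermost start, carried the same contrast between families, with a median WT level of 63.0% over the 55 keratin promoters and 15.8% over the 34 KRTAP promoters. None of either was called, beside 0.248% of all promoters, and 2 keratin promoters (KRT9 and KRT77) and 1 KRTAP promoter (KRTAP2-3) had an unadjusted p under 0.05, beside 6.05% of all promoters. Both ZNF274KO libraries were above both WT libraries at 12 keratin and 7 KRTAP promoters, beside 14.2% of all promoters, and below both at 7 and 4, beside 20.8%. The median difference was 0.75 percentage points for keratin and 1.42 for KRTAP promoters, beside -0.21 for all. Over all promoters the median WT level was 17.3%, near that of KRTAP promoters and far below that of keratin promoters.

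Around the starts of the 54 keratin genes without a CpG-rich promoter, CpGs were densest and most methylated just inside the gene. The first 500 bases from the canonical start held 914 CpGs with levels of 69.5% and 71.8% in WT and 71.3% and 67.6% in ZNF274KO libraries. The 500 bases before the start held 335 CpGs at 53.2% and 51.3% in WT and 56.7% and 52.2% in ZNF274KO libraries. Around the 34 KRTAP starts CpGs were also densest just inside the gene, with 332 against 115 in the 500 bases before, but the level did not step up, with 26.4%, 28.6%, 30.0% and 25.7% before and 23.8%, 24.1%, 28.5% and 24.05% after the start in the order of the libraries.

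The CpG-rich promoter of KRT19 was methylated in all libraries, at 92.8% and 93.02% in WT and 91.7% and 91.8% in ZNF274KO libraries on 127 CpGs. CpG-rich means here a GC content of at least 50% and an observed over expected CpG count of at least 0.6, and the KRT19 promoter had 0.639. The promoters of KRT18 and of KRT8 by its outermost start, which overlap, were the low ones among simple epithelial keratins. KRT18 had 25.5% and 22.0% in WT and 21.6% and 13.5% in ZNF274KO libraries, the largest fall among keratin promoters with groups apart. Around the canonical start of KRT18 the difference was -4.58 and the groups overlapped. At the canonical start of KRT8 the level was 78.6% and 74.4% in WT and 73.9% and 74.1% in ZNF274KO libraries. KRT7 had 85.1%, 85.4%, 80.3% and 87.1%, KRT5 76.6%, 69.5%, 75.7% and 74.1%, and KRT14 75%, 66.7%, 69.7% and 68.6%, all with overlapping groups.

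Among the promoters with the largest rises, KRT77 went from 28.8% and 22.6% to 39.8% and 36.1% on 14 CpGs (difference 12.2, unadjusted p = 0.0415, adjusted p = 0.809, edgeR). KRT6C went from 51.2% and 48.8% to 66.7% and 56.6%, and KRT9 from 37.6% and 43.96% to 55.0% and 49.1% (adjusted p = 0.869 and 0.779). In the 250 bases upstream of KRT9 printed above, the levels were 8.77% and 14.6% in WT and 22.5% and 26.2% in ZNF274KO libraries, on 48 to 71 reads. KRT76 and KRT32 completed the rises with 9.51 and 6.27 percentage points. The falls after KRT18 were those of KRT222, KRT86, KRT13 and KRT71, from -4.20 to -2.73. Around the canonical start of KRT86 the difference was -2.52, with overlapping groups. Among KRTAP promoters, KRTAP2-3, KRTAP2-2 and KRTAP2-4 had the largest differences above 0 with groups apart, 9.83, 8.79 and 5.93, and KRTAP2-1, KRTAP1-4 and KRTAP4-3 the largest below 0, -6.27, -6.25 and -4.00. None of these promoters passed the test.

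Few parts of the clusters were CpG-rich, and most of those were methylated. In steps of 500 bases there were 26 such segments, 17 on chromosome 12 and 9 on chromosome 17, and 18 of them overlapped a keratin gene. Mean WT levels were over 80% in 15 segments, under 20% in 7 and between in 4. No minimum of reads was applied, and 1 of the 15 held 2 CpGs on 4 to 8 reads and 1 of the 7 held 4 CpGs on 9 to 26 reads. Among the low ones were the start region of KRT18 (chr12:53342501-53343000), at 1.2%, 0.9%, 1.1% and 0.3%, and a segment inside KRT77 (chr12:53085001-53085500), at 12.4%, 12.4%, 15.2% and 13.4%. The segment inside KRT8 at chr12:53297501-53298000 had 11.2% and 9.8% in WT and 6.7% and 5.6% in ZNF274KO libraries. The segment of KRT19 at chr17:39684001-39684500, with 61 CpGs, was methylated at 94.0%, 97.1%, 96.6% and 95.1%.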

How the data were processed

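CpG methylation was measured by EM-seq (NEBNext Enzymatic Methyl-seq) in 4 HEK293T libraries. The authors aligned the reads with Msuite2 to hg19 with a ribosomal DNA sequence added, the submitters' processing notes name HISAT2, and the authors deposited counts of methylated and unmethylated reads per CpG for each strand. Any filter by mapping quality, or removal of duplicates, is not given in the sources used here. Counts of both strands were summed over 5 kb tiles, gene bodies and promoters (GENCODE release 44 on GRCh37), and regions with at least 5 CpGs and 20 reads per library were kept. The methylated and the unmethylated counts of a region were fitted with edgeR 4.0.16 (R 4.3.3; quasi-likelihood, Benjamini-Hochberg over the whole genome), without a block for replicate number. Pooled levels were compared by an exact permutation test over libraries. Intervals and limits cover counting error only and treat the counts at neighbouring CpGs as independent, which they are not.

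The members, gene groups and lists were chosen with earlier results of these data known. Named were 9 keratins (KRT8, KRT18, KRT7, KRT19, KRT80, KRT5, KRT14, KRT1 and KRT10), and the 5 largest rises and falls of keratins and tiles (3 for KRTAP) with at least 20 CpGs (10 for promoters) and groups that do not overlap; other genes were named after their values were seen. Alternatives were limma 3.58.1 on log ratios (pseudocount 1), read minimums of 10 and 50, a block for replicate number, subtracting each library's genome-wide level, leaving out very deep, shallow or repeated-sequence CpGs, other tile and promoter sizes, canonical transcripts and leaving out each library. Python 3.11.15 was used for levels and figures.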

Additional observations from a re-analysis of the deposited data

How the results depend on the processing

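No tile, keratin body or promoter of either family was called at an adjusted p under 0.05 under any alternative tried, and among the calls for member regions the exception was 1 KRTAP body with limma, named above. Counts at an unadjusted p under 0.05 ranged over the settings from 12 to 52 tiles, 1 to 9 keratin bodies, 0 to 5 KRTAP bodies, 1 to 3 keratin promoters and 0 to 4 KRTAP promoters, while over the genome they were 4.86% to 9.43% of tiles, 5.85% to 10.1% of bodies and 5.28% to 7.34% of promoters. The 52 tiles and 9 keratin bodies came without ZNF274KO 2, beside 5.83% of all tiles and 6.56% of all bodies. Leaving out 1 library at a time kept every count of calls at 0 and gave level differences of 0.402 to 2.17 percentage points for the chromosome 12 window, -0.948 to 2.68 for the chromosome 17 window, -0.344 to 2.09 for keratin bodies and -0.0936 to 6.11 for KRTAP bodies. The 3 negative values are those without ZNF274KO 1. With the 75th percentile of CpGs per gene in place of summed reads the keratin difference was -0.28 (23 of 55 genes higher) and the KRTAP difference 3.63 (17 of 27 genes higher). With the genome-wide level subtracted, the chromosome 17 window and keratin bodies differed by 1.41 and 1.41. Among the alternatives for single named regions, 790 level differences lay within the pooled replicate SD of the main value and 20 lay outside it. Many of the 790 could not have moved. Read minimums, limma and the replicate blocks leave the level difference as it is. Dropping a library shifts it by no more than that SD, so the split does not measure robustness. What caused these shifts was not tested.

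The main fit had no replicate block because the labels do not say what the replicate numbers mean. In a later check, same-numbered libraries did not deviate together (correlation -0.108 over all tiles and -0.053 in the windows). With a replicate block 0 member regions were called, while calls over the genome went from 2739 to 4790 tiles, 182 to 280 bodies and 49 to 160 promoters. With the crossed pairing, chosen after seeing the data, 0 member regions and 6610 tiles, 265 bodies and 155 promoters of the genome were called. With limma 856 tiles, 57 bodies and 0 promoters of the genome were called. At 8 to 10 reads per CpG, single CpGs and bodies with few CpGs allow no firm statement.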

Other observations

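The human genome holds KRTAP genes outside these clusters, 11 on chromosome 11 and 49 on chromosome 21, which encode further proteins of the hair matrix. Their promoters had a median WT level of 35.5% over 60 genes, beside 15.8% over the 34 promoters on chromosome 17. Their gene bodies had a median of 51.8% over the 43 with enough CpGs, beside 11.3% over 29 on chromosome 17. Between WT and ZNF274KO cells none of these bodies or promoters was called by edgeR, with 3 bodies (7.22% of all bodies) and 4 promoters (6.05% of all promoters) at an unadjusted p under 0.05. Knockout values were higher in both libraries than either WT value in 12 bodies and 20 promoters, beside 9.09% of all bodies and 14.2% of all promoters. They were below both in 4 and 5, beside 30.6% and 20.8%. The median differences were 0.83 and 1.20 percentage points, beside -0.93 and -0.21 over all bodies and promoters. Median WT levels over all bodies and promoters were 69.5% and 17.3%, so these comparisons are not matched in level.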
